A study of Mus musculus with 59 samples.

Results

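The comparison described here is that of day-2 embryoid bodies (EBs) which had lost *Pcgf1* with control EBs of the same mouse embryonic stem cell (ESC) line. Its members were taken by their titles and are 5 *Pcgf1*-KO and 5 control EB libraries of 59 libraries in the series. Control EBs had the genotype ERT2-Cre;Pcgf1f/f and were left without 4-OHT, whereas *Pcgf1*-KO EBs had the genotype ERT2-Cre;Pcgf1delta/delta and came from cells given 4-OHT, so that exposure to 4-OHT and loss of *Pcgf1* cannot be told apart. All of these cells carried ERT2-Cre, a recombinase that 4-OHT switches on, and all belonged to a single floxed line. ESCs of this line were grown on mouse embryonic fibroblasts with LIF and inhibitors of the FGF receptor, of MEK and of GSK3 (SU5402, PD184352 and CHIR99021), and EBs were aggregates of these cells kept for 2 days on low attachment dishes with none of these factors. Total RNA was made into NEBNext Ultra II libraries. The 9 ESC libraries of the same line and the 8 libraries of a line with mutated *Ring1A* and *Ring1B* genes are used below only beside the EB values.

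PCGF1 is the subunit that defines one of the variant forms of Polycomb repressive complex 1 (PRC1). In this complex it pairs with RING1A or RING1B, the ubiquitin ligases that modify histone H2A, and with BCOR or BCORL1, and KDM2B brings the complex to CpG-rich promoters. Polycomb complexes are known for keeping developmental genes silent in pluripotent cells. A day-2 EB stands at the point where ESCs leave the naive state, which resembles the preimplantation epiblast, and take on a formative state like that of the early postimplantation epiblast, before germ layers form. The question of this comparison is which genes of lineages, germ cells, signalling and metabolism had another level in EBs without *Pcgf1*.

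Values are TPM, in which a gene's reads are divided by its length and the library is scaled to a fixed sum, so that levels can be compared between genes. Differences are log2FC, the fitted difference of *Pcgf1*-KO minus control EBs on log2(TPM + 0.1) with same-numbered replicates as pairs, given ± SE with an adjusted *p* (limma, Benjamini-Hochberg over 19622 genes). A gene is said to have risen or fallen when its adjusted *p* was under 0.05. Values of single libraries are listed from replicate 1 to replicate 5. Because every TPM was a whole multiple of a unit set by its gene and library, whole reads could be recovered, and the libraries held 4748584 to 14170337 reads (control EBs) and 5761652 to 11887393 reads (*Pcgf1*-KO EBs).

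The 5 pairs were not 5 equally separate experiments. Identifiers in the file headers put replicate 1, replicates 2 and 3, and replicates 4 and 5 into 3 library series. Over read counts, the mean chi-square per gene, which is about 1 when libraries differ by sampling noise alone, was 2.24 to 10.5 between libraries of the same series and group, and 29.7 to 120 between series. The labels do not say that replicates were separate cultures, so *p*-values measure the spread between these libraries, which may be technical. For this reason counts are also given with each series averaged to 1 value per group, which leaves 3 pairs. In bulk RNA, fewer cells of a type and less RNA per cell cannot be told apart.

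The targeted gene was checked first. *Pcgf1* (chr6:83028380-83030841 in mm9) was at 11.2, 7.3, 10.4, 16.6 and 16.5 TPM in control EBs and at 0.978, 1.53, 1.09, 2.47 and 2.32 TPM in *Pcgf1*-KO EBs. It was lower in all 5 pairs, with log2FC of -2.84 ± 0.21 (adjusted *p* = 0.00057), and the levels of the groups did not overlap. Epiblast markers fixed for the check (*Pou5f1*, *Sox2*, *Fgf5*, *Otx2*, *Dnmt3b* and *Pou3f1*) summed to 3110 to 4530 TPM in control EBs and to 2650 to 3400 TPM in *Pcgf1*-KO EBs. In ESCs of the line they summed to 1810 to 2310 TPM, so the sum was higher in both EB groups but does not by itself identify epiblast cells. The sum of 4 naive ESC markers ranged from 94.5 to 207 TPM in the control EB libraries, from 174 to 452 TPM without *Pcgf1*, and from 1510 to 3140 TPM in ESCs of the line. Feeder fibroblasts had been present in the ESC culture. The sum of 11 fibroblast markers fixed for the check ranged from 25 to 49.1 TPM in the control EB libraries. In the *Pcgf1*-KO EB libraries it ranged from 8.19 to 16.4 TPM, without overlap, and ESCs had 170 to 298 TPM. Without *Thy1* and *Dcn*, which both fell, the sum of the other 9 ranged from 6.85 to 17.4 TPM in the control EB libraries. It ranged from 5.65 to 11 TPM in the *Pcgf1*-KO EB libraries, whereas ESCs had 166 to 295 TPM.

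In *Pcgf1*-KO EBs 907 genes rose (4.62% of those tested) and 1041 genes fell (5.31%). With 3 series means 270 genes rose and 232 fell, and without the pairing 36 rose and 32 fell. Over all genes tested, 4.39% rose and 4.92% fell, moved alike in all 5 pairs and reached 1 TPM in a group mean, the pool from which the genes below were named, and 9.57% were higher in all 5 pairs whether or not they passed the test. Of the 907 genes that rose, 902 were higher in each of the 3 series, and of the 1041 that fell, 1039 were lower in each. The test that chose these genes used the same libraries, so this agreement follows largely from the choice and is no replication. Groups of libraries did not overlap for 243 of the genes that rose and 251 of those that fell. Over all genes tested this held for 3.21%. Changes of more than 2 on the log2 scale were found in 55 genes that rose and 92 that fell. The study sorted RING1B-bound genes by how RING1B binding changed from ESCs to EBs into Group 1 (gain), Group 2 (no change) and Group 3 (loss), and 715 of the genes that rose (78.8%) and 969 of those that fell (93.1%) lay outside all 3 groups, as did 92.2% of all genes tested. Genes inside and outside the groups are both named below. Of the largest rises, *Nkx6-3*, *Gsx1*, *Meis1*, *Vax2*, *Mira*, *Aqp5* and *Tbx20* lay in Group 2. So did *Gata6*, *Eomes*, *Twist1*, *Olig2*, *Gbx2*, *Lhx2*, *Inhbb* and *Notum*, and 37 of 38 Hox genes tested lay in a group. The median log2FC over all genes was -0.05, and list medians below are to be read beside it.

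The 12 genes with the largest rises had means of 0.183 to 3.1 TPM in control EBs, so that most of them were nearly silent there. Not all were so in control ESCs, where *Khdc3* had a mean of 40.2 TPM, *Ism2* of 20.4 TPM and *Vax2* of 4.96 TPM. *Pla2g7*, *Nkx6-3* and *Tbx20* had means of 2.77, 2.58 and 2.19 TPM in control ESCs. *Gsx1*, *Ucma*, *Meis1*, *Mira* and *Aqp5* were under 1 TPM on average in those cells. *Nkx6-3* (chr8:24263743-24269420), a homeobox gene of the stomach and brain, was at 0, 0.259, 0, 0.532 and 0.272 TPM in control EBs and at 2.29, 3.58, 0.639, 10.7 and 10.7 TPM in *Pcgf1*-KO EBs, with log2FC of 3.96 ± 0.38 (adjusted *p* = 0.0012). *Gsx1* (chr5:148000272-148002523), a homeobox gene of the ventral forebrain and spinal cord, was at 0.325, 0, 0.32, 0.806 and 0.687 TPM in control EBs and at 1.93, 11, 9.14, 6.31 and 5.82 TPM in *Pcgf1*-KO EBs, with log2FC of 3.85 ± 0.63 (adjusted *p* = 0.0098). Every *Pcgf1*-KO library was above every control library for both genes.

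*Ucma* (chr2:4897168-4906794), which encodes a cartilage matrix protein, rose by log2FC of 3.76 ± 0.41 (adjusted *p* = 0.0019) from at most 0.807 TPM to 2.52 to 5.33 TPM. *Meis1* (chr11:18780433-18918961), a homeobox partner of HOX proteins, was at 0.168, 0.337, 0.33, 0.553 and 0.575 TPM in control EBs and at 1.99, 3.49, 4.43, 5.93 and 6.21 TPM in *Pcgf1*-KO EBs, with log2FC of 3.17 ± 0.25 (adjusted *p* = 0.00064). Neither gene overlapped between groups. *Khdc3*, which belongs to the subcortical maternal complex of the egg, was at 1.2, 0.688, 0.672, 5.64 and 7.31 TPM in control EBs and at 22.2, 9.5, 7.91, 62.7 and 57.6 TPM in *Pcgf1*-KO EBs, with log2FC of 3.50 ± 0.18 (adjusted *p* = 0.00042). Its level differed nearly as much between library series as between genotypes, yet all 5 *Pcgf1*-KO libraries stood above all control libraries.

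Among the other large rises were *Vax2*, a homeobox gene of the ventral eye (log2FC of 3.10), *Tbx20*, a T-box gene of the heart (2.68), and *Aqp5*, a water channel of glands (2.73). *Pla2g7* (2.88), a secreted phospholipase, rose from 1.18 ± 0.53 to 11.2 ± 8.64 TPM (SD, n = 5), and *Ism2* (2.99) rose from 0.642 ± 0.464 to 5.31 ± 3.39 TPM (SD, n = 5). The RNA *Mira* (2.85) rose from 0.183 to 1.46 TPM on average.

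**Figure D1:**
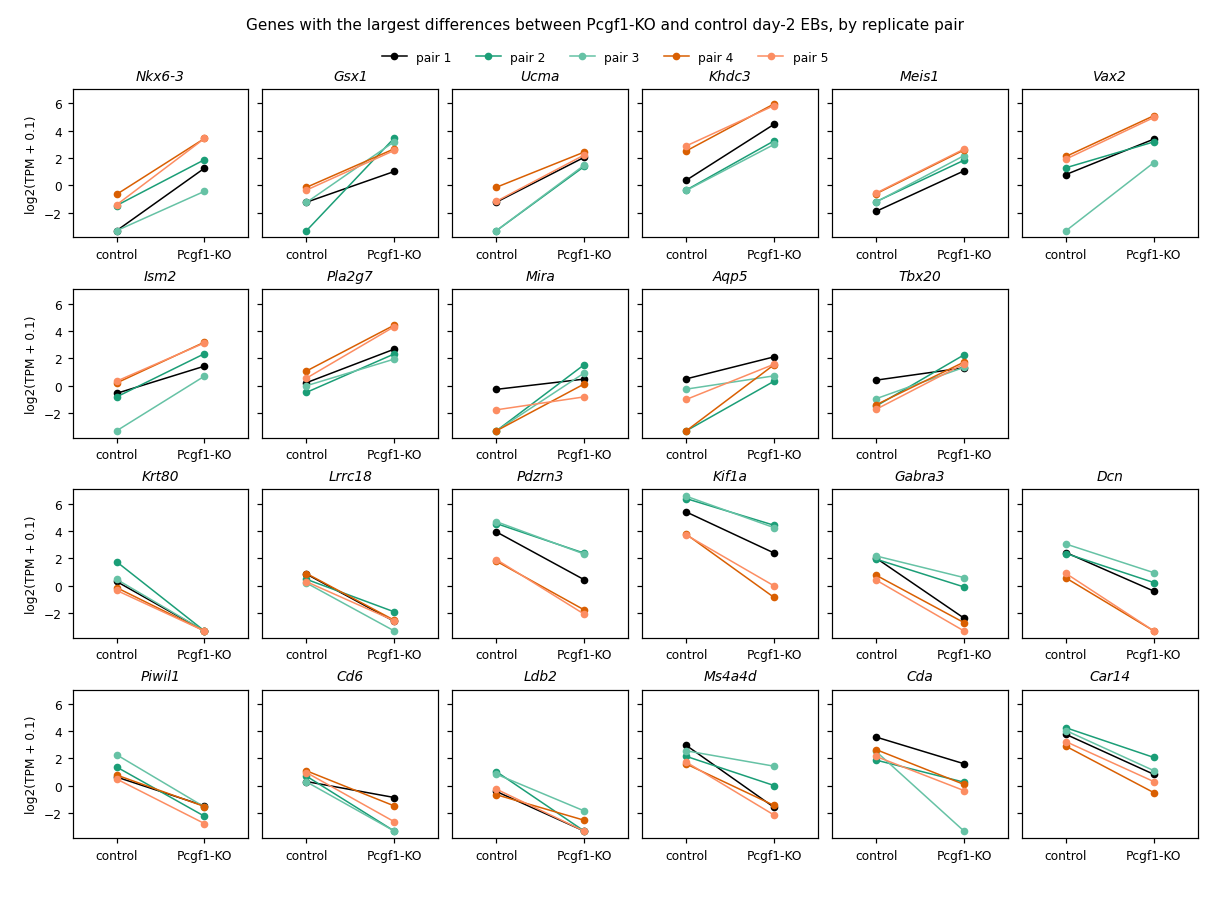
Levels of 11 of the 12 genes with the largest rise (upper panels) and the 12 with the largest fall (lower panels) in *Pcgf1*-KO against control EBs. Each line joins a same-numbered control and *Pcgf1*-KO library, and the vertical axis is log2(TPM + 0.1). All 5 lines run upward in each upper panel and downward in each lower panel, as the choice of these genes required. In many panels pairs 2 and 3 and pairs 4 and 5 lie close together (not for *Vax2* or *Cda*, where pair 3 stands apart). An example is *Pdzrn3*, whose control values are 23.3 and 25.7 TPM in replicates 2 and 3 and 3.36 and 3.67 TPM in replicates 4 and 5.

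The strongest falls were found for genes that control EBs had at low to moderate levels. *Krt80* (chr15:101177875-101200556), a keratin of epithelia, was at 1.14, 3.27, 1.28, 0.805 and 0.686 TPM in control EBs, whereas all 5 *Pcgf1*-KO libraries listed it at 0. Against a floor of 3 reads over the *Pcgf1*-KO group this is at least 14.4-fold lower. *Car14* (chr3:95701691-95708614), a membrane-bound carbonic anhydrase that interconverts carbon dioxide and bicarbonate, was at 13.5, 18.9, 16.4, 7.32 and 9.27 TPM in control EBs and at 1.68, 4.11, 2.05, 0.604 and 1.13 TPM in *Pcgf1*-KO EBs, with log2FC of -2.87 ± 0.21 (adjusted *p* = 0.00053). It stayed past the threshold in all 18 alternative fits, and the groups did not overlap.

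*Kif1a* (chr1:94912033-94998442), a motor protein that carries vesicles along axons, was at 42, 83, 93.7, 13.5 and 13 TPM in control EBs and at 5.13, 21.3, 18.9, 0.448 and 0.885 TPM in *Pcgf1*-KO EBs, with log2FC of -3.13 ± 0.36 (adjusted *p* = 0.0024). *Pdzrn3*, a ubiquitin ligase of muscle and synapses, fell equally (log2FC of -3.13). For both genes every pair showed the fall, which the naming of the genes required. The groups overlapped, since replicates 4 and 5 had far lower levels in both genotypes than replicates 2 and 3. *Piwil1* (chr5:129242121-129261349), a PIWI protein of male germ cells, was at 1.46, 2.5, 4.74, 1.63 and 1.31 TPM in control EBs and at 0.26, 0.113, 0.241, 0.249 and 0.0467 TPM in *Pcgf1*-KO EBs, without overlap. The other large falls were those of *Lrrc18* (log2FC of -3.13), *Gabra3*, a GABA receptor subunit (-3.04), *Dcn*, a matrix proteoglycan (-3.03), *Cd6* (-3.00), *Ldb2*, a LIM-domain binding protein (-2.98), *Ms4a4d* (-2.95) and *Cda*, cytidine deaminase (-2.89).

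*Dcn* is also a fibroblast marker, as is *Thy1* (chr9:43851467-43856662), a surface protein that marks fibroblasts and neurons. *Thy1* was at 19.6, 26.7, 23.2, 18 and 16.4 TPM in control EBs and at 3.45, 3.59, 3.57, 2.49 and 2.55 TPM in *Pcgf1*-KO EBs, which is log2FC of -2.69 ± 0.13 (adjusted *p* = 0.0003). The groups did not overlap, and the fall passed the threshold in all 18 alternative fits. Of 22 genes in the fibroblast list 4 fell and none rose, the others that fell being *Fbln2* (log2FC of -1.15) and *Tagln* (-1.12). The whole list summed to 50.3 to 100 TPM in control EBs and to 36.6 to 73.2 TPM in *Pcgf1*-KO EBs. Without *Thy1* the list summed to 33.9 to 76.9 TPM in control EBs and to 34.1 to 69.8 TPM in *Pcgf1*-KO EBs, ranges that overlapped, and ESCs had 280 to 414 TPM.

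Most genes of the naive state rose in EBs without *Pcgf1*. Of 20 naive genes 14 rose and 2 fell, and their median log2FC was 0.93. With 3 series means 11 rose and none fell. *Prdm14*, a repressor of FGF signalling and of DNA methylation, was at 2.67, 2.01, 0.219, 5.87 and 4.99 TPM in control EBs and at 9.23, 4.8, 4.22, 21.7 and 19.5 TPM in *Pcgf1*-KO EBs (log2FC of 2.11 ± 0.34, adjusted *p* = 0.0095). *Jam2*, a junction protein of naive cells, was at 5.74, 4.81, 2.35, 12.7 and 12 TPM in control EBs and at 22, 13.8, 9.19, 43.7 and 43.7 TPM in *Pcgf1*-KO EBs (log2FC of 1.79 ± 0.11, adjusted *p* = 0.00046). *Tfcp2l1*, a transcription factor downstream of LIF, rose from 14 ± 4.58 to 42.3 ± 18.9 TPM (SD, n = 5). In control ESCs *Tfcp2l1* had a mean of 472 TPM and *Jam2* of 128 TPM, well above every EB library, whereas *Prdm14* had a mean of 21.6 TPM there, close to its level in *Pcgf1*-KO EB replicates 4 and 5.

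The naive genes did not move as a block. *Klf5*, *Nr0b1*, *Nr5a2*, *Esrrb*, *Tcl1*, *Dppa5a*, *Tet2*, *Zfp42* and *Fgf4* rose along with *Klf4* and *Tbx3*, whereas *Fbxo15* and *Cdh1*, the cadherin of epithelia, fell. *Fgf4*, the main FGF of the epiblast, rose by only 0.32 ± 0.07 (adjusted *p* = 0.032), from 204 ± 50.6 to 250 ± 42.4 TPM (SD, n = 5), and it missed the threshold with 3 series means (adjusted *p* = 0.13). Among 12 core pluripotency genes 5 rose and 1 fell, with a median log2FC of 0.13. *Dppa2* rose by 0.61 and *Dppa4* by 0.69, both without overlap between groups, and *Lin28a*, an RNA-binding protein that blocks let-7 maturation, fell from 482 ± 172 to 354 ± 161 TPM (SD, n = 5).

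Genes of the formative epiblast mostly went the other way. Of 17 genes tested 10 fell and 1 rose, with a median log2FC of -0.58, and 6 fell and 1 rose with 3 series means. *Dnmt3b*, the DNA methyltransferase that is switched on in this state, was at 1234, 2344, 2313, 774 and 795 TPM in control EBs and at 508, 1371, 1447, 209 and 226 TPM in *Pcgf1*-KO EBs (log2FC of -1.29 ± 0.19, adjusted *p* = 0.0059). *Zic2*, a zinc finger factor of the epiblast, was at 126, 263, 226, 131 and 133 TPM in control EBs and at 43.4, 113, 90.2, 59.5 and 58.4 TPM in *Pcgf1*-KO EBs (log2FC of -1.28 ± 0.07, adjusted *p* = 0.00042). *Dnmt3b* fell in every pair although the series differed more than the genotypes did, whereas for *Zic2* no *Pcgf1*-KO library reached the lowest control library. *Car4*, a membrane carbonic anhydrase, was at 72.2 to 96.7 TPM in control EBs and at 23.2 to 39 TPM in *Pcgf1*-KO EBs. *Fgf5*, the classical marker of this state, fell from 46.2 ± 20.3 to 26.4 ± 17 TPM (SD, n = 5). *Wnt8a* fell by 2.12 on the log2 scale, but it lay past the threshold in only 10 of 18 alternative fits.

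The endoderm genes that changed rose from low levels. Of 23 endoderm genes tested 9 rose and none fell (median log2FC of 0.50), and 3 rose with 3 series means. *Gata6*, the factor that starts primitive endoderm, was at 0.361, 0.363, 0.355, 1.12 and 1.19 TPM in control EBs and at 1.34, 2.79, 5.37, 6.57 and 8.19 TPM in *Pcgf1*-KO EBs (log2FC of 2.60 ± 0.32, adjusted *p* = 0.0032), and the groups did not overlap. *Sox7*, a further transcription factor of this lineage, rose by 1.80, and *Cubn*, the receptor cubilin of visceral endoderm, by 1.77, while *Sox17*, *Gata4*, *Hhex*, *Col4a1* and *Col4a2* also rose. The sum of *Gata4*, *Gata6*, *Sox17* and *Foxa2* ranged from 2.35 to 4.19 TPM in the control and from 5.06 to 15.1 TPM in the *Pcgf1*-KO libraries, still a small fraction of the epiblast sum. Of these 9 genes, 2 lay outside the RING1B groups.

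Mesoderm, neural and Hox genes rose in part. Of 24 primitive streak and mesoderm genes 5 rose and 1 fell (median log2FC of 0.08). *Eomes*, a T-box gene of the streak, rose from 4.75 ± 1.3 to 16.5 ± 7.52 TPM (SD, n = 5), *Twist1*, a factor of mesenchyme, from 3.3 ± 1.35 to 8.76 ± 1.94 TPM (SD, n = 5), and *Pdgfra*, the receptor of PDGF, from 0.29 ± 0.16 to 1.6 ± 0.7 TPM (SD, n = 5). *Cdx1* rose by 1.52 (adjusted *p* = 0.042), chiefly in replicates 4 and 5. With 3 series means 1 gene of the list passed, and it was none of these 4.

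Of 34 neural genes 5 rose and 1 fell, and the median log2FC of -0.20 had the other sign. *Olig2*, a factor of motor neuron and oligodendrocyte progenitors, was at 9.93, 19.7, 20, 17 and 18.7 TPM in control EBs and at 32.7, 62, 45.7, 51.2 and 46.5 TPM in *Pcgf1*-KO EBs (log2FC of 1.49 ± 0.10, adjusted *p* = 0.00046). *Gbx2*, a homeobox gene of hindbrain and naive cells alike, rose from 9.9 to 34.6 TPM to 42.4 to 80.2 TPM, and *Lhx2*, a gene of the eye field, from 0.592 ± 0.295 to 2.95 ± 0.727 TPM (SD, n = 5). Neither gene overlapped between groups. Of 38 Hox genes 5 rose and 1 fell (median log2FC of 0.60), none of them with 3 series means. *Hoxc4*, *Hoxa7* and *Hoxa10* rose by 2.58, 2.31 and 2.13 but stayed under 4 TPM in every library, while *Hoxb2* fell from 3.83 ± 2.9 to 1.24 ± 1.29 TPM (SD, n = 5).

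Trophoblast and epithelial genes were mixed. Of 19 trophoblast genes 4 rose and 4 fell, and *Krt7*, a keratin of trophoblast and other simple epithelia, fell from 2.92 to 5.86 TPM to 0.464 to 1.61 TPM in separate ranges (log2FC of -2.31 ± 0.32, adjusted *p* = 0.0049). *Peg10*, an imprinted gene of the placenta, rose from 78.6 ± 6.89 to 177 ± 71.5 TPM (SD, n = 5), and *Tfap2a* rose by 1.17. Of 22 epithelial genes 3 rose and 4 fell. The claudins *Cldn3* and *Cldn4* rose by 1.05 and 0.69, and *Grhl3*, a factor of the surface ectoderm, by 0.91, whereas *Krt18* fell from 78.3 ± 20.9 to 47.5 ± 7.46 TPM (SD, n = 5).

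**Figure D2:**
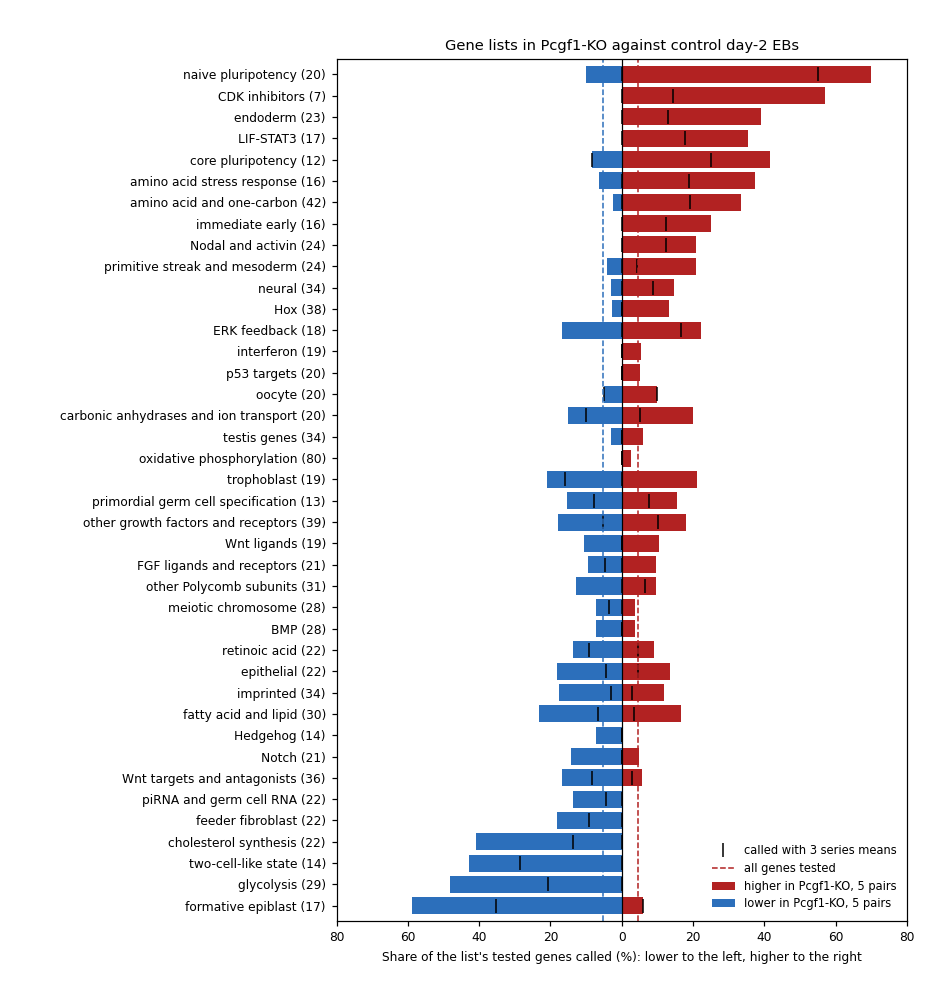
Share of the tested genes of each list that rose (to the right) or fell (to the left) in *Pcgf1*-KO EBs, in percent. Numbers in brackets are the genes tested, small ticks mark the shares with 3 series means, and dashed lines mark the shares over all genes, 4.62% and 5.31%. Naive genes, of which 14 of 20 rose, and glycolysis genes, of which 14 of 29 fell, stand far beyond the dashed lines.

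Germ cell genes moved one by one rather than together. Of 13 genes of primordial germ cell specification 2 rose (*Prdm14* and *Sox17*) and 2 fell, and *Sox17* passed in 6 of 17 alternative fits. *Tfap2c*, which acts with *Prdm14* in germ cell founders, was at 19.3, 21.7, 10.7, 27.8 and 27.7 TPM in control EBs and at 6.02, 8.12, 5.74, 18.4 and 15.8 TPM in *Pcgf1*-KO EBs, lower in each pair (log2FC of -1.07 ± 0.17, adjusted *p* = 0.0083). *Ifitm1*, a surface protein of early germ cells, fell from 180 ± 103 to 103 ± 50.5 TPM (SD, n = 5). Of 28 meiotic chromosome genes 1 rose and 2 fell, a share close to the 9.93% of all genes that rose or fell. *Stra8*, which starts meiosis, rose from 2.6 ± 2.04 to 6.19 ± 3.06 TPM (SD, n = 5), whereas *Sycp3*, an axis protein of meiotic chromosomes, fell from 52.7, 15, 14.7, 15.5 and 16.7 TPM to 10.7, 4.76, 6.79, 9.09 and 9.19 TPM, and *Rec8*, the meiotic cohesin, fell by 0.62.

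Of 22 genes of the piRNA pathway and germ cell RNA 3 fell and none rose, against 9.93% of all genes that rose or fell. With 3 series means 1 fell. A positive log2FC was found for 3 of 22, and the list median was -0.34, against -0.05 over all genes. After *Piwil1* the genes that fell were *Piwil4* (log2FC of -1.52) and *Tdrd1* (-1.06), which both act in the defence against transposons. Of 34 testis genes 2 rose and 1 fell, also close to the share of all genes (9.93%). *Dkkl1* rose from 0.926 ± 0.302 to 2.79 ± 1.1 TPM (SD, n = 5), *Hspa1l* rose by 0.95, and *Usp26* on the X chromosome fell by 1.47 on the log2 scale. Among 20 oocyte genes *Khdc3* and its partner in the subcortical maternal complex, *Ooep*, rose, and *Sohlh2*, a factor of oocyte growth, fell. *Ooep* was at 70.4, 28.3, 24.4, 163 and 164 TPM in control EBs and at 221, 58.6, 71, 272 and 283 TPM in *Pcgf1*-KO EBs (log2FC of 1.15 ± 0.14, adjusted *p* = 0.0033). It was higher in each pair, while the series differed several-fold. All 3 oocyte genes also passed with 3 series means. Control ESCs had means of 40.2 TPM for *Khdc3*, 211 TPM for *Ooep* and 35.7 TPM for *Sohlh2*.

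Of 14 genes of the two-cell-like state, a rare ESC state that resembles the early embryo, 6 fell and none rose (median log2FC of -0.97). *Zscan4c* fell from 6.37 to 14.7 TPM in control EBs to 0.391 to 5.02 TPM (log2FC of -2.37 ± 0.34, adjusted *p* = 0.006). The *Zscan4* genes are near-identical copies that share reads, so *Zscan4b*, *Zscan4d* and *Zscan4f*, which fell by 2.47 to 2.52 on the log2 scale, are not separate measurements.

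Signalling genes showed changes at several levels of the FGF-ERK pathway. Of 18 targets and feedback genes of ERK 4 rose and 3 fell, with a median log2FC of 0.01. *Phlda1* was at 3.39, 11, 5.22, 11 and 10.1 TPM in control EBs and at 14.2, 30.7, 22.2, 45.7 and 43.5 TPM in *Pcgf1*-KO EBs (log2FC of 1.95 ± 0.12, adjusted *p* = 0.00046). *Epha2*, an ephrin receptor, was at 43.2, 154, 126, 81.8 and 80.6 TPM in control EBs and at 161, 525, 375, 198 and 197 TPM in *Pcgf1*-KO EBs (log2FC of 1.56 ± 0.10, adjusted *p* = 0.00046). *Etv4*, a transcription factor induced by FGF, rose from 63.6 ± 20.4 to 149 ± 45.2 TPM (SD, n = 5), and *Spred3*, an inhibitor of the pathway, fell by 0.60 on the log2 scale. These rises held in every pair, and those of *Phlda1* and *Epha2* had no overlap between groups.

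Of 21 FGF ligands and receptors 2 rose (*Fgf4* and *Fgf10*) and 2 fell (*Fgf5* and *Fgf17*), against 4.62% and 5.31% of all genes. *Fgf4* and *Fgf17* passed in 6 of 18 alternative fits each, and *Fgf10* in 8 of 17. Of 16 immediate early genes 4 rose and none fell, namely *Atf3* (log2FC of 1.39), *Nr4a1* (0.87), *Junb* (0.63) and *Dusp1* (0.56), the last of which dephosphorylates MAP kinases. *Nr4a1* was higher in each pair, with 12 to 22.9 TPM in the controls against 17.5 to 42.2 TPM without *Pcgf1*. Other growth factors and receptors were divided, with 7 of 39 up and 7 down. *Pdgfc*, a PDGF ligand, was at 3.37, 9.9, 10.2, 9.96 and 8.76 TPM in control EBs and at 15.9, 26.2, 23.3, 35 and 35.4 TPM in *Pcgf1*-KO EBs (log2FC of 1.72 ± 0.16, adjusted *p* = 0.0012), and the neurotrophin *Ntf3* fell by 2.03 on the log2 scale.

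In the Nodal, activin and TGF-beta pathway 5 of 24 genes rose and none fell. Ligands made up most of them. *Inhbb*, which encodes an activin and inhibin subunit, was at 0.136, 0.545, 0.533, 3.75 and 3.36 TPM in control EBs and at 4.06, 3.55, 2.24, 19.8 and 15.1 TPM in *Pcgf1*-KO EBs (log2FC of 2.61 ± 0.35, adjusted *p* = 0.0042). *Tgfb1* was at 3.17, 2.77, 1.62, 1.71 and 1.38 TPM in control EBs and at 6.61, 10.4, 5.68, 9 and 10.1 TPM in *Pcgf1*-KO EBs (log2FC of 1.96 ± 0.26, adjusted *p* = 0.0044). *Lefty2*, an extracellular inhibitor of Nodal that Nodal itself induces, rose from 106 to 131 TPM to 170 to 274 TPM. For *Tgfb1* and *Lefty2* the groups did not overlap, and *Gdf3* and *Tgfb2* rose as well.

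In the Wnt pathway 2 of 19 ligands rose (*Wnt4* and *Wnt7b*) and 2 fell (*Wnt3* and *Wnt8a*), none with 3 series means. Of 36 Wnt targets and antagonists 2 rose and 6 fell. Over all genes 4.62% rose and 5.31% fell, so the share of targets and antagonists that rose was close to that of all genes. *Notum*, a secreted enzyme that inactivates Wnt proteins, was at 3.14, 6.6, 3.65, 5.78 and 5.35 TPM in control EBs and at 12.8, 18.3, 10.1, 25.1 and 21.8 TPM in *Pcgf1*-KO EBs (log2FC of 1.80 ± 0.15, adjusted *p* = 0.00079), without overlap. The receptor *Fzd2* fell from 26 ± 15.2 to 14.7 ± 11.3 TPM (SD, n = 5), lower in each pair.

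Of 28 BMP genes 1 rose (*Chrd*, which binds BMPs, by 1.11) and 2 fell (*Bmpr1b* by 1.64 and the BMP target *Id2* by 0.82 on the log2 scale), of 21 Notch genes 1 rose and 3 fell, and of 14 Hedgehog genes 1 fell. The BMP and Hedgehog shares were close to or below the 9.93% of all genes that rose or fell. The Notch ligand *Dll3*, the modifier *Mfng* and the target *Hey1* fell by 0.70, 0.83 and 1.24. For *Hey1* the controls had 4.88 to 7.36 TPM and the mutants 1.86 to 3.09 TPM. No gene of the BMP, Notch and Hedgehog lists passed with 3 series means. In the Notch list the median log2FC was -0.43 and 4 of 21 genes had a positive value.

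In the retinoic acid list 2 of 22 genes rose and 3 fell, against 4.62% and 5.31% of all genes. *Rxrg*, a nuclear receptor for retinoids, was at 5.24, 10.1, 11.3, 5.64 and 5.41 TPM in control EBs and at 1.52, 2.63, 3.22, 0.913 and 0.701 TPM in *Pcgf1*-KO EBs (log2FC of -2.13 ± 0.23, adjusted *p* = 0.002). *Crabp2*, which carries retinoic acid to the nucleus, fell by 1.70 and *Stra6*, the receptor for retinol uptake, by 1.75 on the log2 scale, whereas *Meis1*, a known target of retinoic acid, rose as given above. Of 17 genes of the LIF and STAT3 pathway 6 rose and none fell (median log2FC of 0.39). They included *Bcl3* (from 4.07 ± 1.94 to 11.2 ± 3.84 TPM, SD, n = 5) and the receptor *Lifr* (from 8.9 ± 3.34 to 17.9 ± 6.8 TPM, SD, n = 5), besides *Klf4* and *Tfcp2l1*, which the naive list holds too.

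Many glycolysis genes fell in *Pcgf1*-KO EBs. Of 29 genes 14 fell, none rose and 15 did not pass, with a median log2FC of -0.28, and none lay in a RING1B group. A positive log2FC was found for 7, and 12 were lower and 5 higher in all 5 pairs. With 3 series means 6 fell. *Slc2a1*, the main glucose transporter, was at 511, 665, 720, 710 and 663 TPM in control EBs and at 151, 308, 278, 368 and 342 TPM in *Pcgf1*-KO EBs (log2FC of -1.23 ± 0.12, adjusted *p* = 0.0012). *Ldha*, lactate dehydrogenase A, was at 1750, 1675, 1822, 1631 and 1571 TPM in control EBs and at 1008, 983, 1199, 872 and 877 TPM in *Pcgf1*-KO EBs (log2FC of -0.78 ± 0.06, adjusted *p* = 0.00057). For both genes every *Pcgf1*-KO library was below every control library, and both belong to the more abundant transcripts of these cells. *Pfkfb3*, which makes the activator of phosphofructokinase, fell from 17.3 ± 5.48 to 8.06 ± 3.92 TPM (SD, n = 5) and *Aldoc* by 0.66 on the log2 scale. *Pfkl*, *Aldoa*, *Tpi1*, *Gpi1*, *Pgk1*, *Pgam1*, *Eno1*, *Ldhb* and the lactate transporters *Slc16a1* and *Slc16a3* also fell, so that members were spread over most steps of the pathway. Of 80 genes of oxidative phosphorylation, by contrast, 2 rose (*Cox8a* by 0.32 and *Cox4i1* by 0.25) and none fell, a smaller share than that of all genes. The difference between these lists was not tested.

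Many genes of the glycolysis list carry the letters ACGTG, the core of the element bound by hypoxia-inducible factors, in their promoters. A window of 300 bases from 250 bases before to 50 bases after a start of the gene was searched on both strands in mm9. The start was the outermost one among its transcripts with a CCDS entry, or among protein-coding transcripts where none had one, so that it can lie inside the gene as annotated, as it does for *Ldha*. The letters were found in 15 of 29 glycolysis genes (51.7%), of which 8 had fallen, and in 25.6% of the windows of all expressed genes. They were as frequent in the amino acid stress list described further on (8 of 16, 50%), in which 6 genes rose, and were found in 12 of 40 genes of amino acid and one-carbon metabolism (30%). These letters also lie inside the E-box CACGTG, and a match is not a binding site. The glycolysis list also holds genes that are not enzymes of the pathway, and its matches include *Egln3*, *Ero1l*, *Bnip3* and *Pdk3*. These are known to respond to hypoxia, so a share above that of all genes can follow from the choice of the list. The stretches around the match are shown for 3 of the genes that fell because they let the element be read beside the values, with the letters on either strand in capitals.

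Slc2a1, chr4:118781288-118781347, plus strand: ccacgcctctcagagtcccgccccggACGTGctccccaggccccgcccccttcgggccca

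Ldha, chr7:54101003-54101062, plus strand: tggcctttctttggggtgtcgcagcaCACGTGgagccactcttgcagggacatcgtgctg

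Pgk1, chrX:103382263-103382322, plus strand: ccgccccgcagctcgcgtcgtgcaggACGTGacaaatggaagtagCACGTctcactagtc

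Cholesterol synthesis showed the same direction. Of 22 genes tested 9 fell and none rose (median log2FC of -0.34), 1 had a positive log2FC, and 15 were lower in all 5 pairs, as 13.7% of all genes were. With 3 series means 3 fell. *Mvd*, an enzyme of the mevalonate pathway, was at 100, 140, 147, 111 and 110 TPM in control EBs and at 64.7, 94, 90.2, 72.7 and 62.1 TPM in *Pcgf1*-KO EBs (log2FC of -0.67 ± 0.06, adjusted *p* = 0.00097). The groups did not overlap. *Lss* and *Idi1* fell by 0.64 and 0.51, and *Fdps*, *Pmvk*, *Tm7sf2*, *Fdft1* and *Sqle* fell as well. In the fatty acid and lipid list 5 of 30 genes rose and 7 fell. *Cpt1a*, which brings fatty acids into mitochondria for oxidation, was at 11.2, 20.6, 12.8, 22.9 and 19.22 TPM in control EBs and at 24.8, 44.5, 38.1, 51.4 and 50.4 TPM in *Pcgf1*-KO EBs (log2FC of 1.27 ± 0.10, adjusted *p* = 0.00057). *Fabp5*, *Lpl* and *Elovl4*, which bind, release and elongate fatty acids, fell by 1.20, 1.36 and 0.90.

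Several genes of amino acid metabolism rose. Of 42 genes of amino acid and one-carbon metabolism 14 rose and 1 fell, with a median log2FC of 0.17, and 8 rose and none fell with 3 series means. *Cth*, which makes cysteine from cystathionine, was at 85.5, 85.6, 70.8, 96.2 and 89.8 TPM in control EBs and at 172, 126, 160, 198 and 218 TPM in *Pcgf1*-KO EBs (log2FC of 1.01 ± 0.10, adjusted *p* = 0.0014). *Ass1*, an enzyme of arginine synthesis, was at 82, 126, 129, 70.2 and 68.7 TPM in control EBs and at 163, 214, 223, 199 and 207 TPM in *Pcgf1*-KO EBs (log2FC of 1.13 ± 0.13, adjusted *p* = 0.0028). No overlap was seen for either gene. *Slc7a1*, the arginine transporter, rose by 1.15, and *Tdh*, threonine dehydrogenase, on which mouse ESCs depend, rose from 113 ± 26.9 to 222 ± 58.7 TPM (SD, n = 5).

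Of 16 genes of the amino acid stress response, which ATF4 drives when amino acids are short, 6 rose and 1 fell (median log2FC of 0.36), and 3 rose with 3 series means. *Chac1*, which degrades glutathione, rose from 27.7 ± 11.1 to 53 ± 18.3 TPM (SD, n = 5), *Trib3*, a pseudokinase, from 32 ± 10.2 to 54.1 ± 13.3 TPM (SD, n = 5), and *Asns*, asparagine synthetase, from 239 ± 36.7 to 359 ± 87.3 TPM (SD, n = 5). *Atf4* itself, *Sesn2* and *Ppp1r15a* also rose, and *Vldlr*, a lipoprotein receptor, fell by 0.92 but passed in only 7 of 18 alternative fits. The letters TGATGNAA, which form the element that ATF4 binds with a C/EBP partner, were found in the promoter windows of 6 of the 16 genes (37.5%), of which 4 (*Chac1*, *Trib3*, *Asns* and *Vldlr*) had changed, and in 2.14% of the windows of all expressed genes. The list holds genes known for this response, so a share above that of all genes can follow from its choice and is not a result about these EBs. The 3 stretches of genes that rose are printed here with the match in capitals, which for *Chac1* and *Trib3* is the reverse complement.

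Asns, chr6:7643205-7643264, minus strand: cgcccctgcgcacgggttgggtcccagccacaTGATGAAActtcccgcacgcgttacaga

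Chac1, chr2:119176759-119176818, plus strand: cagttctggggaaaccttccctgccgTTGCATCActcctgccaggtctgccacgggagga

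Trib3, chr2:152169749-152169808, minus strand: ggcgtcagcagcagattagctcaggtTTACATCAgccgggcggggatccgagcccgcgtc

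Polycomb genes moved in both directions. Past the threshold were 3 of 10 genes of the PCGF1-PRC1 complex and 7 of 31 other Polycomb genes, against 9.93% of all genes. The 3 include the deleted gene *Pcgf1* itself, whose fall was set by the experiment. In the complex *Pcgf1* fell and its partners *Bcorl1* and *Bcor* rose, by 1.11 ± 0.14 (adjusted *p* = 0.0031) and 0.67 ± 0.10 (adjusted *p* = 0.0059). *Bcorl1* was at 3.9, 10, 13.2, 5.01 and 5.14 TPM in control EBs and at 8.01, 28.7, 22.6, 10.8 and 11.8 TPM in *Pcgf1*-KO EBs, higher in each pair with overlap between series. *Bcor* and *Bcorl1* both lie on the X chromosome, which as a whole tended downward. Of the other Polycomb genes 3 rose and 4 fell. *Jarid2* and *Phf19*, accessory subunits of PRC2, rose by 0.66 and 0.93, *L3mbtl2*, of the PCGF6 form of PRC1, by 0.61, and *E2f6*, its partner, fell by 0.45 on the log2 scale.

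Of 7 inhibitors of cyclin-dependent kinases 4 rose and none fell. *Cdkn2a* (chr4:88920377-88940557), a Group 1 gene that encodes p16 and p19ARF and is a classical Polycomb target, was at 17.8, 14.3, 13, 26.4 and 29.6 TPM in control EBs and at 68.9, 47.4, 47.4, 75 and 69.9 TPM in *Pcgf1*-KO EBs (log2FC of 1.65 ± 0.11, adjusted *p* = 0.00046). It did not overlap between groups and passed in all 18 alternative fits. Its neighbour *Cdkn2b* rose from 6 to 11.5 TPM to 13.9 to 17.8 TPM, and *Cdkn2c* and *Cdkn1a* rose by 1.47 and 0.44. *Cdkn1a* was the only gene of 20 p53 targets that rose, and none fell. Of 19 interferon genes 1 rose (*Ddx58*, by 0.71). The p53 and interferon shares lay below the 9.93% of all genes that rose or fell. Of 34 imprinted genes 4 rose and 6 fell, and *Plagl1*, an imprinted growth regulator, was at 1.97, 0.992, 3.12, 1.13 and 0.897 TPM in control EBs and at 5.91, 7.27, 7.15, 9.51 and 8.99 TPM in *Pcgf1*-KO EBs (log2FC of 2.32 ± 0.34, adjusted *p* = 0.0061). Of 20 carbonic anhydrase and ion transport genes 4 rose and 3 fell, among them the zinc transporter *Slc39a4* (up by 0.82), and *Mt3* fell by 0.87, while *Dio3* and *Ascl2* of the imprinted list lay close to the threshold (adjusted *p* = 0.049 each).

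The genes in the RING1B groups gave a frame for these counts. Among 150 Group 1 genes 47 rose (31.3%) and 3 fell, among 1311 Group 2 genes 142 rose (10.8%) and 47 fell (3.59%), and among 68 Group 3 genes 3 rose and 22 fell (32.4%). Outside the groups 715 of 18093 genes rose (3.95%) and 969 fell (5.36%).

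Promoters of the genes that fell held fewer CpGs. In the mm9 windows described above, at least 15 CpGs were found for 68% of all expressed genes, for 67.2% of those that rose and for 59% of those that fell. The share fell with the size of the change, from 65.9% for falls under 1 to 48.1% for falls of 1 to 2 and 37% for falls over 2 on the log2 scale. It also fell for rises of these sizes, with 69.2%, 64.7% and 54.8%. The level of the genes moved with it, since the median of the higher group mean was 41.4, 6.08 and 4.12 TPM for the falls. It was 50, 14.3 and 5.47 TPM for the rises and 22.9 TPM over all expressed genes. The part of the level in this share was not tested. The windows of *Cdkn2a*, a gene that rose and has 45 CpGs, and *Car14*, a gene that fell and has 13, are shown as examples, each with its CpGs in capitals. They lie further apart than the medians, which were 21 CpGs for genes that rose and 17 for those that fell.

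Cdkn2a, chr4:88940474-88940773, minus strand: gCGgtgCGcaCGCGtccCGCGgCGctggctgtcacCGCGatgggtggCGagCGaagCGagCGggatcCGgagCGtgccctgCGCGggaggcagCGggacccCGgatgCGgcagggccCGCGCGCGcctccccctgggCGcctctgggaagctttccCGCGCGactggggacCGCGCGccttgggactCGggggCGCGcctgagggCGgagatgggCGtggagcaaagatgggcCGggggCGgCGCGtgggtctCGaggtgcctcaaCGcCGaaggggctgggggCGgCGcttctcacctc

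Car14, chr3:95708565-95708864, minus strand: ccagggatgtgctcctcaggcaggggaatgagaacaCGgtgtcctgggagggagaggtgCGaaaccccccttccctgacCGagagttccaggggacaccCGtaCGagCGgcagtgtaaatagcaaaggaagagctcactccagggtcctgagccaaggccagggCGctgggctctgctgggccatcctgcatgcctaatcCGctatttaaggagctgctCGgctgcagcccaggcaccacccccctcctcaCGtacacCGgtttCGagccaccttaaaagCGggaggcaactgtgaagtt

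Not every gene that rose was CpG-rich. The window of *Meis1*, the Group 2 gene with one of the largest rises, held 12 CpGs, fewer than that of *Car14*, and among genes that rose by over 2 the share with at least 15 CpGs was 54.8%.

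The X chromosome stood apart from the autosomes. Of 476 expressed X-linked genes 76 fell (16%) and 20 rose (4.2%), whereas of 11831 autosomal genes 832 fell (7.03%) and 790 rose (6.68%). The median log2FC was -0.15 on the X and -0.04 on autosomes. By pair the median difference on the X was -0.36, -0.05, 0.00, -0.18 and -0.12, against -0.15, -0.01, 0.00, -0.01 and 0.01 on autosomes, so that the shift was near 0 in pairs 2 and 3, of a single library series. The same shift was measured in *Pcgf1*-KO ESCs, with a median of -0.16 on the X and -0.02 on autosomes. On the Y chromosome 2 of 5 expressed genes fell, and the median was -0.43 in EBs and -0.36 in ESCs. By pair the median on the Y was -0.852, -0.073, 0.115, -0.678 and -0.664. These patterns were noticed in the data and were not tested.

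**Figure D3:**
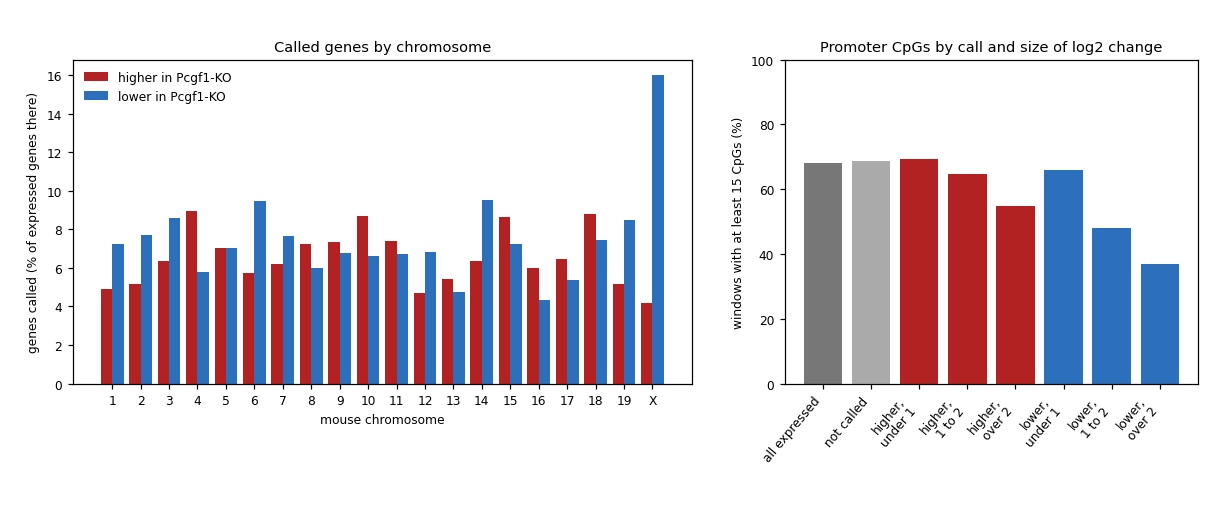
Left, share of expressed genes on each autosome and on the X chromosome that rose or fell in *Pcgf1*-KO EBs, in percent. Right, share of promoter windows with at least 15 CpGs for genes grouped by the direction and size of their log2FC, in percent. The X chromosome has 16% of its genes lower, against 7.03% over the autosomes, and the genes with the largest falls have the lowest CpG share, 37%.

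The same genes were then read in *Pcgf1*-KO ESCs. The genes that rose in EBs had a median log2FC of 0.77 in EBs and 0.19 in ESCs, and 164 of the 907 also rose in ESCs, where 2.53% of all genes rose. Those that fell had medians of -0.78 and -0.18, and 160 of the 1041 also fell in ESCs, where 2.78% of all genes fell. EBs supplied the genes, which makes their EB median the larger by choice, so the difference itself was tested gene by gene over all 19 libraries of the line. The effect was higher in EBs than in ESCs for 172 of 20594 genes (0.835%) and lower for 161 (0.782%). With 3 series means none of these differences passed in limma, although 1920 had an unadjusted *p* under 0.05, and without the pairing 1 passed, whereas limma voom on the recovered reads called 285 and 293. Among the genes named here, the difference passed for *Meis1*, which was at 0.428 TPM in control and 0.570 TPM in *Pcgf1*-KO ESCs on average, for *Gata6* (1.29 and 1.31 TPM), for *Cdkn2a* (22.8 and 31.2 TPM) and for *Zic2* (26.9 and 23 TPM), whereas *Dnmt3b* had the opposite sign in ESCs (33.8 and 82.2 TPM). Other genes had effects of like size at both stages. *Gbx2* rose by 1.40 in ESCs and 1.67 in EBs, *Bcorl1* by 1.14 and 1.11, and *Sohlh2* fell by 1.55 and 1.53 on the log2 scale. The difference of these 3 genes was 0.27, -0.02 and 0.02 with SE of 0.25, 0.25 and 0.36 and did not pass.

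**Figure D4:**
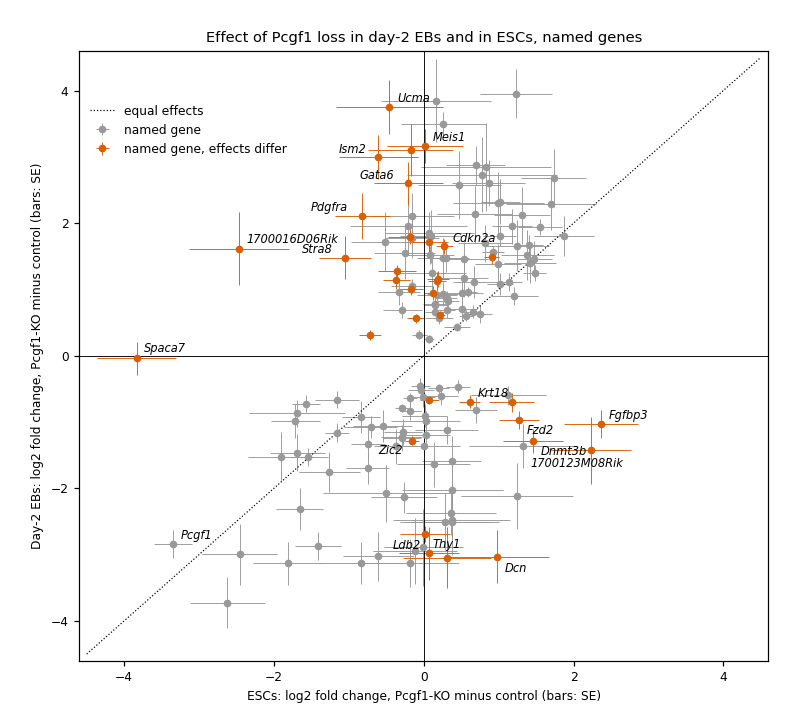
Effect of *Pcgf1* loss on the genes named in the text, as log2FC in EBs (vertical axis) against log2FC in ESCs (horizontal axis). Orange points are genes whose difference between stages passed the threshold, bars are SE, and the dotted line marks equal effects. *Meis1* (3.17) and *Gata6* (2.60) are high in EBs and near 0 in ESCs, and *Pcgf1* itself lies near the line.

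A separate line, in which 4-OHT leaves a RING1B protein whose ligase activity is mutated on a mutant *Ring1A* background (Ring1A-pm;Ring1B-cpm), shares no library with the *Pcgf1* line and has 2 control and 2 mutant EB libraries. In these EBs 1666 of 20279 genes rose (8.22%) and 390 fell (1.92%). Of the 907 genes that rose in *Pcgf1*-KO EBs 241 also rose there and 31 fell, and of the 1041 genes that fell in *Pcgf1*-KO EBs 85 also fell there and 78 rose. The number that also fell was 162 with median-of-ratios scaling and 149 with quantile normalization. For the genes that fell, the medians were -0.78 in *Pcgf1*-KO EBs and -0.12 in the point mutant EBs. *Meis1* rose by 3.35 and *Cdkn2a* by 1.38 in the point mutant EBs, and *Car14*, *Car4* and *Dnmt3b* fell by 2.60, 2.33 and 1.80 on the log2 scale, the same directions as in *Pcgf1*-KO EBs. *Slc2a1* (log2FC of -0.25, adjusted *p* = 0.5) and *Ldha* (-0.18, adjusted *p* = 0.35) did not pass there, and *Zscan4c* had the opposite sign (3.42, adjusted *p* = 0.0013). Whether the effects differed between the lines was not tested.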

How the data were processed

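RNA-seq of 5 *Pcgf1*-KO and 5 control EB libraries was used. The authors aligned reads with STAR (version 2.5.2b) to mm9 and deposited TPM for 24391 genes listed by symbol. They used DESeq2 for their own fold changes, which needs counts and was not used here. How TPM was made from counts is not given in the sources used here. For each of 18643 genes above 0 in at least 3 of the 19 libraries of the line, a unit was found of which all values are whole multiples (100% of these genes, tolerance 0.001 reads), and these reads served for depth, for the floor of 3 reads and for 1 alternative fit. A floor covers counting error only.

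In R (version 4.3.3), log2(TPM + 0.1) of 19622 genes above 0 in at least 1 EB library was fitted with limma (version 3.58.1), with a trended prior variance, genotype as factor and the replicate number as block. *p*-values are two-sided and Benjamini-Hochberg adjusted over all genes tested. The numbers come from the sample titles. Same-numbered libraries deviated from their group means together (r of 0.59, 0.56, 0.50, 0.60 and 0.66 over 13189 genes), which was taken as pairing, although libraries of a series did so across numbers too. For a *Pcgf1*-KO EB library the title says replicate 4 and the characteristics say 5, and the title was used. The difference between stages was the interaction term over 19 libraries of the line, and the point mutant line was fitted alone over its 8 libraries. The fit was tested on simulated data.

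The comparison and the 41 gene lists were chosen with earlier results of these data known. Named are *Pcgf1*, the 12 highest and 12 lowest log2FC among genes past the threshold that moved alike in 5 pairs and reached a group mean of 1 TPM, up to 4 members past the threshold from each list, and the 4 largest stage differences in each direction. Other members of a list are given by name only, and genes outside this rule are marked as such. Some genes that the rule selects are not reported here by name or in the plots. RING1B groups are those of the study, matched by symbol. Promoter windows came from the mm9 (NCBIM37) sequence with GENCODE M1 starts and were found for 12309 of 13560 expressed genes (90.8%). Alternatives were a pseudocount of 1, a mean of at least 1 TPM, median-of-ratios scaling, quantile normalization, no block, exchange of *Pcgf1*-KO EB replicates 4 and 5, a robust prior without trend, each replicate left out, and all 19 libraries together. The fits by library series, without whole series, on recovered reads, and with blocks within each stage were added after the data had been seen. Tables and plots used Python (version 3.11.15) with pandas (version 2.3.3), numpy (version 2.4.6) and matplotlib (version 3.10.9).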

Additional observations from a re-analysis of the deposited data

Results flagged for a closer look

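On the log2 scale of the fit, a single library stood far from the other libraries of its group. This was among 50 groups tested over 25 genes, where chance alone gives about 1 in 20. *Vax2* was at 0 TPM in control EB replicate 3, against 1.64 to 4.25 TPM in the other control EBs. The gap was 0.757 of the range of the group on the log2 scale. There the constant added to TPM sets the place of a library at 0 TPM. On TPM itself the gap was a smaller part of the range.

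For 34 of the named genes the effect of *Pcgf1* loss differed between EBs and ESCs in the test of the difference itself (limma, adjusted *p* of 0.00103 to 0.0498). Values here are the log2FC in EBs minus that in ESCs. None of them passed with 3 series means.

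Among genes of lineages and of the naive and formative states the difference was 1.98 for *Jam2*, -2.74 for *Dnmt3b*, -1.13 for *Zic2*, 2.93 for *Pdgfra*, 2.81 for *Gata6*, 0.58 for *Olig2* and -1.30 for *Krt18*. It was 3.15 for *Meis1*, 3.28 for *Vax2*, 4.21 for *Ucma* and 3.60 for *Ism2*, which rose in EBs and did not pass the test in ESCs, and -3.35 for *Gabra3*, -4.01 for *Dcn*, -3.05 for *Ldb2* and -2.71 for *Thy1*. *Zic2* and *Cdkn2a* (1.38) had the lowest adjusted *p* of the named genes, 0.00103 each.

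Among germ cell and signalling genes it was 2.54 for *Stra8*, 1.52 for *Ooep*, 1.03 for *Fgf4*, -2.24 for *Fzd2*, -1.88 for *Dll3* and 1.65 for *Pdgfc*. Of these 6 genes, *Fgf4* (log2FC of 0.32 in EBs and -0.71 in ESCs), *Fzd2* (-0.97 and 1.27) and *Dll3* (-0.70 and 1.17) passed the test at both stages with opposite signs. *Stra8* (1.48 and -1.06) and *Ooep* (1.15 and -0.37) also had opposite signs but did not pass in ESCs.

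Among metabolic and chromatin genes it was -0.75 for *Mvd*, 1.62 for *Cpt1a*, 0.96 for *Slc7a1*, 0.95 for *Ass1*, 1.18 for *Cth*, 0.81 for *Chac1*, 0.67 for *Asns* and 0.39 for *L3mbtl2*. For *Cth*, which makes cysteine, the means were 85.6 and 175 TPM in control and *Pcgf1*-KO EBs and 158 and 148 TPM in the respective ESCs.

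The largest differences also included genes at very low levels. *1700016D06Rik* (4.08) was listed at 0 in all control EBs, *Spaca7* (3.79) was above 0 in 1 control and 1 *Pcgf1*-KO EB library, and *1700123M08Rik* (-3.67) and *Fgfbp3* (-3.40) had log2FC of -1.43 and -1.03 in EBs.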

How the results depend on the processing

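The counts of genes that rose and fell (907 and 1041) depended most on how the pairs were treated. Without the replicate block they were 36 and 32 (1939 genes had an unadjusted *p* under 0.05), with 3 series means 270 and 232, and with a robust prior without trend 480 and 534. Leaving out 1 replicate gave 445 to 783 genes that rose and 433 to 776 that fell, the lowest without replicate 5, leaving out replicates 2 and 3 gave 544 and 616, and leaving out replicates 4 and 5 gave 314 and 277. Voom on recovered reads gave 1582 and 1703. The other alternatives stayed within 1.5 times, and *Pcgf1* passed in all 18, with log2FC of -2.31 to -3.00.

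The counts of stage differences (172 and 161) were 0 and 1 without the replicate block, 0 and 0 with 3 series means, 85 and 89 with a robust prior, 10 and 2 without replicates 2 and 3, 285 and 293 with voom, and 481 and 423 with the replicate block within each stage. Leaving out 1 replicate gave 16 to 139 and 19 to 154. Those lower in EBs became 252 with a mean of at least 1 TPM and 249 with the library series as block. For 125 named genes whose stage difference did not pass, 75 of 2233 refits had the other sign and 96 passed.

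For the point mutant line, genes that rose in both became 134 without the replicate block, and genes that fell in both became 38 without it, 162 with median-of-ratios scaling and 149 with quantile normalization.

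Of 159 named genes, 19 passed in all alternatives run. No sign changed for those that had passed, and *Spaca7*, which had not, had log2FC of 0.006 with quantile normalization. Without the replicate block 66 of 82 counts over the lists moved by over 1.5 times. The fits on series means and without replicates hold fewer samples. For the other shifts the cause was not tested. Depth (4748584 to 14170337 reads) limits genes under about 1 TPM, such as Hox genes.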

Other observations

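Some genes outside the lists and the naming rule had large changes at high levels, and they were chosen after their values were seen. *Trh*, the precursor of thyrotropin-releasing hormone, was at 1120, 336, 561, 392 and 391 TPM in control EBs and at 133, 91.3, 69.2, 89 and 84.9 TPM in *Pcgf1*-KO EBs (log2FC of -2.46 ± 0.18, adjusted *p* = 0.000549), without overlap. *Pim2*, a kinase of cell survival, was at 576, 566, 719, 147 and 172 TPM in control EBs and at 122, 194, 189, 17.9 and 20.8 TPM in *Pcgf1*-KO EBs (log2FC of -2.36 ± 0.22, adjusted *p* = 0.00106), lower in each pair. *Epas1*, which encodes a hypoxia-inducible factor, was at 14.5, 65.1, 33.2, 45.2 and 44.9 TPM in control EBs and at 92, 368, 246, 128 and 133 TPM in *Pcgf1*-KO EBs (log2FC of 2.22 ± 0.21, adjusted *p* = 0.00119), without overlap. *Dnmt3l*, the cofactor of de novo DNA methyltransferases, rose from 142 to 416 TPM to 497 to 643 TPM, whereas *Dnmt3b* fell. *Pou5f1* did not pass the test (log2FC of 0.08 ± 0.07, adjusted *p* = 0.541), and *Sox2* rose by 0.25.

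*Hal* and *Amdhd1*, which encode enzymes of histidine breakdown, are neighbours on chromosome 10 with a gap of 4034 bases in mm9, and both rose. *Hal* went from 0.411 to 3.04 TPM in control EBs to 3.23 to 12 TPM (log2FC of 2.57), and *Amdhd1* from 0.714 to 3.34 TPM to 5.7 to 11.1 TPM (log2FC of 2.08). On the X chromosome, 12 of 20 genes of the *Armcx*, *Tceal*, *Bex* and related families, which lie side by side, fell and none rose, among them *Armcx2* (log2FC of -1.48), *Tceal1* (-1.58) and *Wbp5* (-0.46). These genes were also picked after the data were seen, and reads of close copies among them are uncertain. This holds also for the near-identical *Hspa1a* and *Hspa1b*, which rose by 1.65 and 1.64.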
